A study of Mus musculus with 18 samples.

Results

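The genes described here are the collagens and the main proteases of the extracellular matrix with their inhibitors, 90 genes in all. They comprise 44 collagen chains, 19 ADAMTS proteases, 23 matrix metalloproteinases (MMPs) and the tissue inhibitors Timp1 to Timp4. They were picked by gene name out of 24015 rows in each of 3 tables. RNA was sequenced from the microdissected dentate gyrus of C57BL/6 mice aged 8 weeks. The group cFos_OE overexpressed c-Fos, a subunit of the transcription factor AP-1, and EYFP_OE overexpressed a yellow fluorescent protein. In the remaining groups a short hairpin RNA was present and mice were taken at E1 or at E0, which the deposited comparisons call sham: shRNA-cFos_E1, shRNA-cFos_E0, shRNA-Ctrl_E1 and shRNA-Ctrl_E0. Each of the 6 groups had 3 libraries, and the labels give one mouse to each library. Every mouse carried a construct. What was done between E0 and E1, which promoter drove each construct and how it was delivered is not given in the sources used here.

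Collagens are triple-helical proteins. Fibrillar chains form cables, collagen IV forms the sheet of basement membranes around vessels, and collagen VI forms beaded filaments. The adult brain has little fibrillar collagen outside the meninges and vessel walls, and its own matrix is rich in hyaluronan and proteoglycans of the lectican family. ADAMTS proteases and MMPs are zinc enzymes that cut these molecules, and TIMPs block the enzymes. Several MMP genes and Timp1 are textbook targets of AP-1, which binds DNA as pairs of Fos and Jun proteins.

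The values are the authors' fold changes with standard errors (SE), and a gene was called at a Benjamini-Hochberg adjusted p under 0.05 in the authors' DESeq2 Wald test. The tables give no value per library. Fos itself was higher in all 3 deposited tables, by 2.33 ± 0.15 on the log2 scale at E1 with shRNA-cFos, 3.36 ± 0.14 at E1 with shRNA-Ctrl and 3.34 ± 0.20 with overexpression. The sign of the table for overexpression was read from Fos. All 6 dentate granule neuron markers were detected, with mean normalized counts between 225 and 4721 over the authors' deposited tables. These are bulk samples, in which fewer cells of a type and less RNA per cell cannot be told apart.

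With c-Fos overexpression, most of the members that were called were higher. By the authors' deposited table, 20 of 79 tested members were higher than with EYFP (25.3%) and 4 were lower (5.06%). Over all 15827 genes tested, 13.0% were called, 7.1% higher and 5.86% lower. The median log2 fold change was 0.12 for the members and -0.01 for all genes in the authors' deposited table. Of the 20 that rose, 13 were collagens, 3 were MMPs, and 2 each were ADAMTS and TIMP genes.

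At E1 relative to E0, the members split by direction in both hairpin arms. With shRNA-cFos, 12 of 71 tested members rose (16.9%) and 10 fell (14.1%), and their median was 0.00, by the authors' deposited table. Of all genes 28.1% were called there, 16.3% higher and 11.7% lower. With shRNA-Ctrl, 14 of 78 rose (17.9%) and 11 fell (14.1%), and their median was 0.06, by the authors' deposited table. Of all genes 33.0% were called there, 16.8% higher and 16.2% lower. The members' shares in both arms lay near those of all genes.

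**Figure D1:**
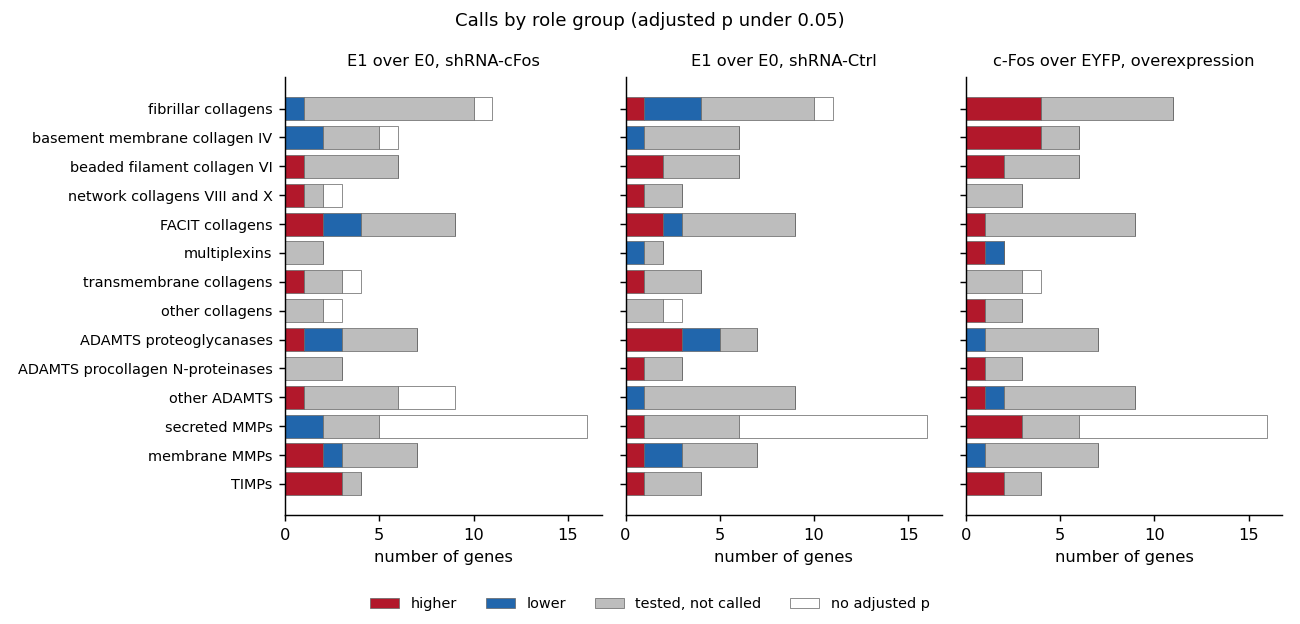
Number of genes (x axis) in each role group (y axis) that were higher, lower, tested but not called, or without an adjusted p, in the shRNA-cFos, shRNA-Ctrl and overexpression tables. With overexpression 4 of 11 fibrillar collagens and 4 of 6 collagen IV chains were higher and none was lower, while most of the 16 secreted MMPs had no adjusted p in any table.

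In all, 49 members were called in at least 1 table and 41 in none. Those called numbered 31 in exactly 1 table, 14 in 2 and 4 in all 3. Of the 71 members tested in all 3 comparisons, 42.3% were called in 1, 19.7% in 2 and 5.63% in 3, against 33.5%, 16.8% and 3.32% of all 14341 such genes in the authors' deposited tables. The 4 were Col6a1, Col4a6, Mmp2 and Mmp17. Of these, Col6a1 was higher in each of the 3 authors' deposited tables, and the rest changed direction between tables.

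**Figure D2:**
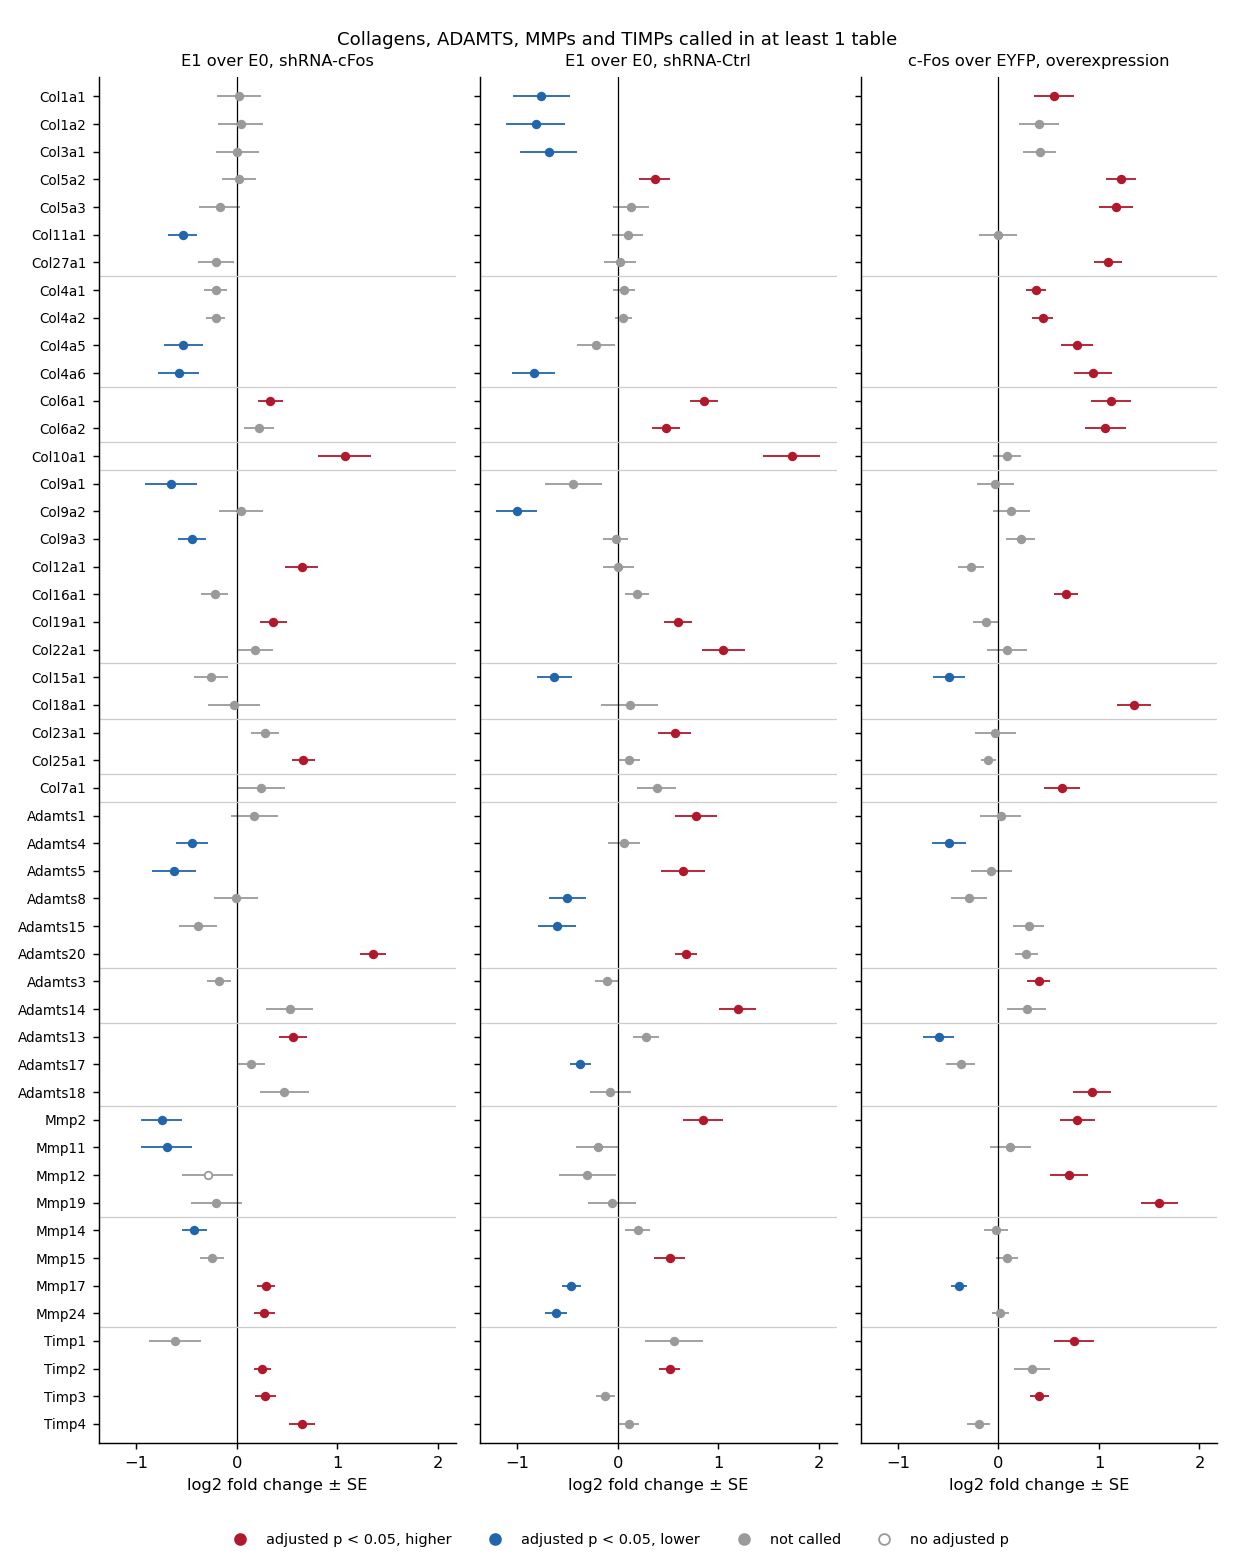
Log2 fold change ± SE (x axis) of the 49 members called in at least 1 table (y axis, ordered by role with grey lines between role groups), at E1 over E0 with shRNA-cFos, at E1 over E0 with shRNA-Ctrl, and with c-Fos over EYFP. Red and blue points passed an adjusted p of 0.05, grey points did not, and the open point has no adjusted p. Col6a1 is red in each panel, and Mmp2 is blue with shRNA-cFos and red in the other panels.

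Of the collagen VI chains, Col6a1 rose in every comparison. It encodes the alpha 1 chain, which every collagen VI molecule needs. Its estimated level, from the authors' deposited table, was 1159 normalized counts in shRNA-cFos_E1 and 907 in shRNA-cFos_E0. The corresponding levels from the authors' deposited table for shRNA-Ctrl were 1746 at E1 and 928 at E0. The deposited log2 fold changes in the authors' tables were 0.33 ± 0.13 with shRNA-cFos (adjusted p = 0.034) and 0.86 ± 0.14 with shRNA-Ctrl (adjusted p = 1.4e-08). With overexpression the authors' deposited table gave 1.12 ± 0.20 (adjusted p = 1e-06), or 1.85 with the shrinkage of the authors' fit removed, an uncertain value. Col6a2, its partner chain, rose at E1 with shRNA-Ctrl (0.48 ± 0.14) and with overexpression (1.06 ± 0.20) in the authors' deposited tables. With the shrinkage removed the value of Col6a2 with overexpression was 1.98, also uncertain. With shRNA-cFos, Col6a2 stood at 0.22 ± 0.15 in the authors' deposited table and was not called. Col6a3, which completes the common form of the molecule, had log2 fold changes between -0.09 and 0.13 in the authors' deposited tables and was called in none. Col6a4, Col6a5 and Col6a6 were not called either.

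Promoters are shown for members that changed most among those called in at least 2 tables, as far as the RefSeq table of promoters (build GRCm38.p6) holds them. Windows of 250 bases before the transcription start were searched on both strands for the AP-1 site TGANTCA, the CRE TGACGTCA, the TATA box TATAAA and the GC box GGGCGG. The Col6a1 window lies at chr10:76726045-76726294, minus strand, and holds 1 AP-1 match, in capitals, whose last base is 84 bases before the start.
Col6a1: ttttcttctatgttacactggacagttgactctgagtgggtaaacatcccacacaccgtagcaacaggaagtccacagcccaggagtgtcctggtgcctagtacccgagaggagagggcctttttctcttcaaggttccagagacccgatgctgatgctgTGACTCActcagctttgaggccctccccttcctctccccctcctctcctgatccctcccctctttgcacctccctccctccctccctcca
The Col10a1 window, chr10:34389731-34389980 on the plus strand, has 1 TATA box match, in capitals, and no AP-1 match.
Col10a1: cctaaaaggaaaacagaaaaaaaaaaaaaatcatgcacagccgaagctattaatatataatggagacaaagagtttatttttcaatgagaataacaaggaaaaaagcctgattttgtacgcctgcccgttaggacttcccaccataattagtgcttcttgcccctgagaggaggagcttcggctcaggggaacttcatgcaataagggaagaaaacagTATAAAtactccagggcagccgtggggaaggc
The Adamts20 window, chr15:94404351-94404600 on the minus strand, is 76.4% G and C, with 3 GC box matches, in capitals, and no AP-1 match.
Adamts20: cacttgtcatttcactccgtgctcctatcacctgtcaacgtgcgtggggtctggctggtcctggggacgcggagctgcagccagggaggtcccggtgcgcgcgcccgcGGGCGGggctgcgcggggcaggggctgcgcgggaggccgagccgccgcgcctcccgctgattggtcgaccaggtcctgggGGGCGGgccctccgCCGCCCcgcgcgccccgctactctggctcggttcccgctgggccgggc
Col5a2 belongs to the same set of members.

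Of the 90 members, 67 matched the promoter table, with 73 windows. The AP-1 letters occurred in 9 of these windows (12.3%) and in 6.75% of all 32841 windows. No match overlapped another of the motifs searched, and the CRE letters occurred in 0 member windows, against 1.55% of all windows. The TATA letters occurred in 19.2% of member windows and 12.4% of all, and the GC box letters in 52.1% of member windows and 32.7% of all. The 9 windows belong to Col6a1 and to 8 MMP genes of one cluster on chromosome 9. Such a match describes letters, and binding was not measured. The 41 bases around the site, in capitals, are given for those MMPs that show how the cluster's sites differ, with Mmp12 as the one that rose with overexpression.
Mmp12 (chr9:7347313-7347353, plus strand, 38 bases before the start): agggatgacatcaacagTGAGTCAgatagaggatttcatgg
Mmp3 (chr9:7445759-7445799, plus strand, 40 bases before the start): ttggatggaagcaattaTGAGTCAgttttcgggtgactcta
Mmp13 (chr9:7272462-7272502, plus strand, 29 bases before the start): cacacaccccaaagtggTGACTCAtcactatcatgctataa
Mmp20 (chr9:7628119-7628159, plus strand, 89 bases before the start): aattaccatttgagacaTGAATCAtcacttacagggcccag
The site read TGAGTCA in Mmp12, Mmp3, Mmp1a, Mmp1b, Mmp7 and Mmp10, TGACTCA in Mmp13 and TGAATCA in Mmp20.

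Counts of these 8 MMP genes were low throughout. Mmp1a and Mmp1b, relatives of the human interstitial collagenase, and Mmp20, an enamel protease, had a mean count of 0 in each of the authors' deposited tables. Mmp3 (stromelysin), Mmp7 (matrilysin), Mmp10 and Mmp13 had mean normalized counts of at most 2.94 in the authors' deposited tables and got no adjusted p. Mmp12, the elastase of macrophages, had a mean of 12.5 normalized counts in the authors' deposited table for overexpression and rose there by 0.70 ± 0.19 (adjusted p = 0.0026). Mmp12 shares 157 exon bases with Mmp1b on the opposite strand in GENCODE M21, so with the strand setting unknown reads there cannot be told apart. Mmp8, a neutrophil collagenase, Mmp21 and Mmp27 were not tested either.

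The fibrillar collagens called with overexpression all rose, while the major chains fell at E1 with shRNA-Ctrl. With c-Fos overexpression 4 of 11 were higher and none lower, against 7.1% higher and 5.86% lower over all genes, by the authors' deposited table. The median of the 11 was 0.40. Most of the risers are minor fibrillar chains. Col5a2 stood at 327 normalized counts in cFos_OE and 119 in EYFP_OE, estimated from the authors' deposited table, with a log2 fold change of 1.22 ± 0.15 (adjusted p = 1.1e-13). Col5a3, estimated from the authors' deposited table at 153 normalized counts in cFos_OE and 53.7 in EYFP_OE, had a log2 fold change of 1.17 ± 0.17. Col27a1, at 261 in cFos_OE and 109 in EYFP_OE from the authors' deposited table, had one of 1.09 ± 0.14. The major chain Col1a1 rose by 0.56 ± 0.20 in the authors' deposited table (adjusted p = 0.040), or 0.88 with the shrinkage removed, an uncertain value. Its partner Col1a2 (0.40 ± 0.20) and Col3a1 (0.41 ± 0.17) had values in the same direction in the authors' deposited table and were not called.

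At E1 with shRNA-Ctrl, Col1a1, Col1a2 and Col3a1, the chains of collagens I and III, fell by 0.76, 0.82 and 0.69 on the log2 scale in the authors' deposited table (adjusted p = 0.027, 0.018 and 0.048). With the shrinkage removed the same falls came to -1.24, -1.43 and -1.10, all uncertain, since their SE of 0.28 to 0.29 lay near the largest in the authors' deposited table. Col3a1 was not called when genes of every mean count were adjusted together (adjusted p = 0.060). With shRNA-cFos the same chains had log2 fold changes of 0.02, 0.04 and 0.00 in the authors' deposited table, and the differences between the arms were not called (adjusted p = 0.10, 0.074 and 0.15). Col5a2 rose slightly with shRNA-Ctrl (0.37 ± 0.15, adjusted p = 0.048) in the authors' deposited table, a call that was lost under centring and without a minimum mean count. Col11a1 fell with shRNA-cFos (-0.54 ± 0.15) and stood at 0.10 ± 0.15 with shRNA-Ctrl by the authors' deposited tables, a difference of -0.64 ± 0.21 (adjusted p = 0.014).

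Markers of meningeal and perivascular fibroblasts, the main makers of collagens I and III in brain, moved with these falls. With shRNA-cFos 0 of 7 markers were called by the authors' deposited table, at a summed 1520 normalized counts in shRNA-cFos_E1 and 1302 in shRNA-cFos_E0. At E1 with shRNA-Ctrl 5 of 7 fell and none rose, at a median of -0.77, by the authors' deposited table. Their summed level, estimated from the authors' deposited table, was 1156 normalized counts in shRNA-Ctrl_E1 and 2800 in shRNA-Ctrl_E0. These sums are uncertain, since the SE of most of these markers lay near the largest in that deposited table. The sums for shRNA-cFos likewise hold uncertain values, those of Dcn, Slc6a13 and Igf2. With overexpression 0 of 7 were called too, at a summed 2509 in cFos_OE and 2449 in EYFP_OE from the authors' deposited table. Choroid plexus markers were also lower with shRNA-Ctrl, at a median of -0.55. Of 5 tested there, 1 (Kl) was called lower and 0 higher. Their summed level was 430 normalized counts in shRNA-Ctrl_E1 and 713 in shRNA-Ctrl_E0, with a lowest mean count of 6.24. Of these markers 0 were called with shRNA-cFos, and 1 rose with overexpression. No marker of either list was at 0, and no spread over libraries can be given. The part of fibroblasts or choroid plexus in the falls of the collagens was not tested.

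**Figure D3:**
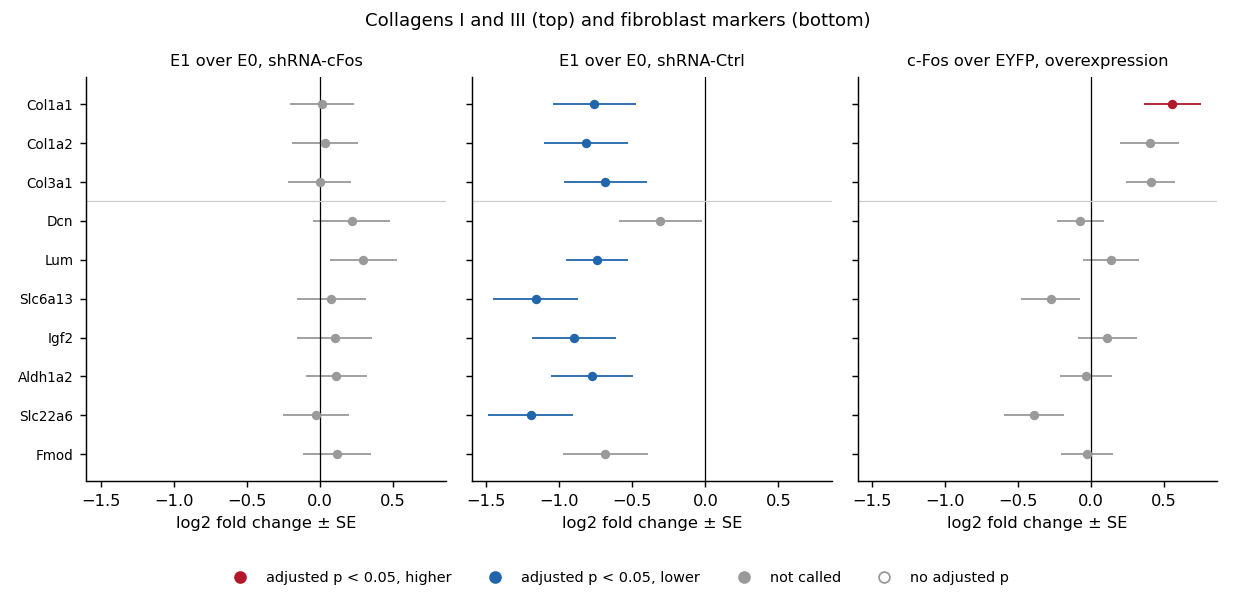
Log2 fold change ± SE (x axis) of Col1a1, Col1a2 and Col3a1 (above the grey line) and of 7 fibroblast markers (below it), in the same 3 comparisons and colours as the plot of members by role. With shRNA-Ctrl all 3 collagens and 5 of 7 markers are blue, and with overexpression Col1a1 is red and 0 of 7 markers passed.

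Collagen IV rose with c-Fos overexpression for 4 of 6 chains, and no chain was lower, by the authors' deposited table. Over all genes 7.1% were higher and 5.86% lower. Col4a1 and Col4a2 encode the common network of all basement membranes and lie head to head, sharing 22 exon bases on opposite strands in GENCODE M21. Col4a1 stood at 1186 normalized counts in cFos_OE and 899 in EYFP_OE, estimated from the authors' deposited table, with a log2 fold change of 0.37 ± 0.10. Col4a2 had 0.44 ± 0.10 there, at 1497 normalized counts in cFos_OE and 1077 in EYFP_OE from the authors' deposited table. Col4a5 and Col4a6, a second such pair on the X chromosome, rose by 0.78 ± 0.16 and 0.94 ± 0.19 in the authors' deposited table.

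At E1 the pairs parted. Col4a6 fell with shRNA-cFos (-0.58 ± 0.20) and with shRNA-Ctrl (-0.84 ± 0.22) in the authors' deposited tables. Col4a5 fell with shRNA-cFos (-0.53 ± 0.19) by the authors' deposited table and was not called with shRNA-Ctrl (-0.22 ± 0.19). Col4a1 and Col4a2 were both at -0.21 with shRNA-cFos and at 0.06 and 0.05 with shRNA-Ctrl in the authors' deposited tables, without a call. Col4a3 and Col4a4, known from kidney filters, had mean counts of at most 15.2 in the authors' deposited tables and no call. Endothelial and mural cells make collagen IV in vessels. By the authors' deposited table, 0 of 8 were higher and 3 lower, of the endothelial markers with overexpression, at a summed 2662 normalized counts in cFos_OE and 3170 in EYFP_OE. Of 8 mural markers 0 were higher and 1 lower there, at a summed 2124 in cFos_OE and 2466 in EYFP_OE from the authors' deposited table. The part of vessel cells in the changes of collagen IV was not tested.

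The remaining collagens changed one by one. Col18a1, a basement membrane collagen whose end is released as endostatin, had the largest collagen change with overexpression as deposited, 1.35 ± 0.17 in the authors' deposited table. Its estimated level was 365 normalized counts in cFos_OE and 110 in EYFP_OE, from the authors' deposited table. Its close relative Col15a1 fell with overexpression (-0.49 ± 0.16) and at E1 with shRNA-Ctrl (-0.63 ± 0.17) in the authors' deposited tables. Col16a1, a fibril-associated collagen, rose with overexpression (0.67 ± 0.12) in the authors' deposited table, as did Col7a1, the anchoring fibril of skin (0.63 ± 0.18).

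At E1 the largest collagen rise was that of Col10a1, known as the collagen of hypertrophic cartilage. It rose by 1.07 ± 0.26 with shRNA-cFos (adjusted p = 0.00047) and by 1.73 ± 0.29 with shRNA-Ctrl (adjusted p = 2.5e-08) in the authors' deposited tables. With the shrinkage removed these were 2.003 and 2.83, both uncertain, and the mean count was 14.6 and 16.99 in the authors' deposited tables. Col10a1 lies inside Nt5dc1 on the opposite strand and shares 18 exon bases with it. Nt5dc1 had log2 fold changes of -0.19 ± 0.25 and 0.01 ± 0.22 at E1 with shRNA-cFos and shRNA-Ctrl in the authors' deposited tables. With overexpression Col10a1 stood at 0.09 ± 0.14 in the authors' deposited table. Its estimated level there was 4.12 normalized counts in cFos_OE and 3.85 in EYFP_OE, where the lowest mean count tested was 3.64. At so few counts the shrunken value and its SE cannot show that Col10a1 did not respond to overexpression.

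Among fibril-associated collagens 4 of 9 were called with shRNA-cFos and 3 of 9 with shRNA-Ctrl, by the authors' deposited tables. Over all genes 28.1% and 33.0% were called. Col19a1, a neuronal collagen needed for some hippocampal synapses, rose by 0.36 ± 0.14 with shRNA-cFos and by 0.60 ± 0.14 with shRNA-Ctrl in the authors' deposited tables. Col22a1 stood at 0.18 ± 0.18 with shRNA-cFos and rose with shRNA-Ctrl (1.05 ± 0.21), by the authors' deposited tables. Col23a1, a transmembrane collagen outside these 9, rose with shRNA-Ctrl (0.57 ± 0.16) in the authors' deposited table. Col12a1 rose with shRNA-cFos (0.65 ± 0.17) and was at 0.01 ± 0.15 with shRNA-Ctrl in the authors' deposited tables. Col25a1, a neuronal transmembrane collagen found in amyloid plaques, rose with shRNA-cFos as well, by 0.66 ± 0.11 in the authors' deposited table. Its estimated level, from the authors' deposited table, was 1165 normalized counts in shRNA-cFos_E1 and 721 in shRNA-cFos_E0. With shRNA-Ctrl Col25a1 stood at 0.11 ± 0.11 in the authors' deposited table. The collagen IX chains fell singly: Col9a1 (-0.66 ± 0.26) and Col9a3 (-0.45 ± 0.14) with shRNA-cFos, and Col9a2 (-1.01 ± 0.20) with shRNA-Ctrl, in the authors' deposited tables. Without a minimum mean count Col9a1 was not called (adjusted p = 0.052), and its value with the shrinkage removed was -1.06, an uncertain one.

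Of the 7 ADAMTS proteases grouped as cutting proteoglycans, 3 were called at E1 with shRNA-cFos, 5 with shRNA-Ctrl and 1 with overexpression, by the authors' deposited tables. Over all genes 28.1%, 33.0% and 13.0% were called, in the same order. Adamts20, best known for its role in the spread of mouse pigment cells, had the largest deposited change of any member with shRNA-cFos. Its estimated level was 494 normalized counts in shRNA-cFos_E1 and 181 in shRNA-cFos_E0, from the authors' deposited table, a log2 fold change of 1.35 ± 0.13 (adjusted p = 1.4e-23). With shRNA-Ctrl it was 600 at E1 and 368 at E0 from the authors' deposited table, a log2 fold change of 0.68 ± 0.11. Adamts1, an aggrecanase, stood at 0.17 ± 0.23 with shRNA-cFos and rose with shRNA-Ctrl (0.78 ± 0.21, adjusted p = 0.0013), by the authors' deposited tables. The difference was not called (-0.61 ± 0.32, adjusted p = 0.15, computed from the authors' deposited tables). With overexpression it stood at 0.02 ± 0.20 in the authors' deposited table.

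Adamts5, the main aggrecanase of cartilage, moved in opposite directions. It decreased with shRNA-cFos (-0.63 ± 0.22) and rose with shRNA-Ctrl (0.65 ± 0.22) in the authors' deposited tables. Adamts4, a brain aggrecanase, fell with shRNA-cFos (-0.44 ± 0.16) and with overexpression (-0.49 ± 0.17), and was at 0.06 ± 0.16 with shRNA-Ctrl in the authors' deposited tables. Adamts8 (-0.50 ± 0.18) and Adamts15 (-0.60 ± 0.19) fell with shRNA-Ctrl in the authors' deposited table. Adamts9 was called in none of the deposited tables.

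Among the procollagen N-proteinases, which trim new fibrillar collagen, Adamts14 stood at 0.52 ± 0.23 with shRNA-cFos (adjusted p = 0.076) by the authors' deposited table. With shRNA-Ctrl Adamts14 rose by 1.19 ± 0.18 (adjusted p = 1.1e-09) by the authors' deposited table. Adamts3 rose with overexpression (0.40 ± 0.12) in the authors' deposited table. Of the other ADAMTS genes, Adamts13, the protease of von Willebrand factor, rose with shRNA-cFos (0.56 ± 0.14) and fell with overexpression (-0.60 ± 0.16) in the authors' deposited tables. Adamts18 rose with overexpression (0.93 ± 0.19) and Adamts17 fell with shRNA-Ctrl (-0.37 ± 0.11) in the authors' deposited tables.

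Among secreted MMPs, Mmp2 (gelatinase A) was called in every comparison. It had 82.6 normalized counts in shRNA-cFos_E1 and 155 in shRNA-cFos_E0, estimated from the authors' deposited table. In the shRNA-Ctrl arm the estimates from the authors' deposited table were 222 in shRNA-Ctrl_E1 and 112 in shRNA-Ctrl_E0. Its log2 fold changes were -0.75 ± 0.20 with shRNA-cFos and 0.85 ± 0.20 with shRNA-Ctrl by the authors' deposited tables, a fall in one arm and a rise in the other. With overexpression it rose by 0.78 ± 0.17 in the authors' deposited table, at 139 normalized counts in cFos_OE and 68.7 in EYFP_OE. Mmp19 rose by 1.60 ± 0.19 with overexpression (adjusted p = 1.1e-15), the largest change of any member in that deposited table of the authors, or 2.26 with the shrinkage removed, an uncertain value. It shares 789 exon bases with Tmem198b on the opposite strand, which stood at 0.19 ± 0.15 in the same authors' deposited table. At E1 Mmp19 stood at -0.21 ± 0.26 with shRNA-cFos and -0.06 ± 0.24 with shRNA-Ctrl in the authors' deposited tables. Mmp9, the activity-linked gelatinase B, was called in none, with log2 fold changes of -0.09 ± 0.23, -0.39 ± 0.22 and 0.06 ± 0.20 for shRNA-cFos, shRNA-Ctrl and overexpression in the authors' deposited tables. Mmp11 fell with shRNA-cFos, by the authors' deposited table (-0.70 ± 0.25, or -1.10 with the shrinkage removed, an uncertain value).

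The most abundant MMP was membrane-bound. Per kb of exon, Mmp17 ranked second of the 90 members in each table, at 652, 1013 and 889 normalized counts per kb for shRNA-cFos, shRNA-Ctrl and overexpression, from the authors' deposited tables. It rose at E1 with shRNA-cFos (0.29 ± 0.09), fell with shRNA-Ctrl (-0.46 ± 0.09) and fell with overexpression (-0.40 ± 0.08) in the authors' deposited tables. Mmp24, a neuronal enzyme that sheds cadherins, likewise rose with shRNA-cFos (0.27 ± 0.10) and fell with shRNA-Ctrl (-0.61 ± 0.11) in the authors' deposited tables. Mmp24 shares 637 exon bases with BC029722 on the opposite strand, which was called in neither arm (-0.02 ± 0.11 and 0.13 ± 0.10 in the authors' deposited tables). Most dentate granule neuron markers moved at E1 in the same direction as these enzymes. At E1, 4 of 6 rose and none fell with shRNA-cFos, and 4 fell and 1 rose with shRNA-Ctrl, by the authors' deposited tables. Their summed level was 12192 normalized counts in shRNA-cFos_E1 and 8583 in shRNA-cFos_E0, and 15947 in shRNA-Ctrl_E1 and 20047 in shRNA-Ctrl_E0, from the authors' deposited tables, with no marker at 0. With overexpression, 0 of 6 rose and 2 fell by the authors' deposited table, and Mmp24 was not called there. Of 6 hippocampal pyramidal neuron markers, 2 (Grik4 and Bok) rose and 1 (Wfs1) fell with shRNA-cFos. With shRNA-Ctrl and with overexpression 0 of these 6 were called. The part of these neurons in the changes of Mmp17 and Mmp24 was not tested. Mmp14, the membrane enzyme that activates pro-Mmp2, fell with shRNA-cFos (-0.42 ± 0.13) by the authors' deposited table, and Mmp15 rose with shRNA-Ctrl (0.52 ± 0.15). Mmp16, Mmp23 and Mmp25 were called in none.

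All 4 TIMPs, the inhibitors, rose in at least 1 comparison. Timp2, which at low doses also helps Mmp14 to activate Mmp2, ranked first per kb of exon in each table, at 1262, 1671 and 1473 normalized counts per kb for shRNA-cFos, shRNA-Ctrl and overexpression, from the authors' deposited tables. It rose at E1 with shRNA-cFos (0.25 ± 0.09) and with shRNA-Ctrl (0.52 ± 0.11) in the authors' deposited tables. Timp3, the matrix-bound inhibitor of ADAMTS enzymes, rose with shRNA-cFos (0.28 ± 0.10) and with overexpression (0.41 ± 0.10) in the authors' deposited tables. Timp4 rose with shRNA-cFos (0.65 ± 0.13) by the authors' deposited table. Its estimated level was 347 normalized counts in shRNA-cFos_E1 and 215 in shRNA-cFos_E0, from the authors' deposited table. Timp1, the inducible inhibitor, rose with overexpression in the authors' deposited table (0.75 ± 0.20, adjusted p = 0.0028, or 1.28 with the shrinkage removed), at 26.4 normalized counts in cFos_OE and 10.9 in EYFP_OE, uncertain estimates. At E1 Timp1 stood at -0.61 ± 0.26 with shRNA-cFos and 0.56 ± 0.29 with shRNA-Ctrl in the authors' deposited tables, neither called and both uncertain.

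Timp1, Timp3 and Timp4 each lie inside a synapsin gene, Syn1, Syn3 and Syn2, on its opposite strand. Timp4 shares 90 exon bases with Syn2 in GENCODE M21, and Timp1 and Timp3 share 0 with their partners. Syn1 rose by 0.49 ± 0.09 at E1 with shRNA-cFos by the authors' deposited table, the opposite sign to the value of Timp1. Syn2 rose by 0.23 ± 0.08 there in the authors' deposited table, the same direction as Timp4, and Syn3 stood at -0.02 ± 0.12. In the shRNA-Ctrl arm Syn1 stood at -0.12 ± 0.09, again the opposite sign to Timp1. Where Timp1 and Timp3 rose with overexpression, Syn1 stood at 0.19 ± 0.07 and Syn3 at 0.19 ± 0.09 by the authors' deposited table. Both had the direction of the Timp gene, and neither was called. The part of the synapsin genes in the counts of the Timp genes was not tested.

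Markers of glia and vessels moved in part beside these changes. Of 6 markers of microglia, the brain's macrophages, 3 rose and 0 fell by the authors' deposited table, at a summed 5069 normalized counts in cFos_OE and 4210 in EYFP_OE. Of 6 markers of astrocytes, a source of Timp1, 2 rose and 1 fell there, at a summed 102802 in cFos_OE and 86502 in EYFP_OE from the authors' deposited table. At E1 the microglial markers rose for 1 and fell for 2 with shRNA-cFos, and rose for 5 with none lower with shRNA-Ctrl, by the authors' deposited tables. Their summed level was 3486 normalized counts in shRNA-cFos_E1 and 3607 in shRNA-cFos_E0, and 5628 in shRNA-Ctrl_E1 and 4734 in shRNA-Ctrl_E0, from the authors' deposited tables. The astrocyte markers rose for 3 and fell for 1 with shRNA-cFos, and rose for 1 with none lower with shRNA-Ctrl, by the authors' deposited tables. Their summed level was 75008 in shRNA-cFos_E1 and 64877 in shRNA-cFos_E0, and 83780 in shRNA-Ctrl_E1 and 84754 in shRNA-Ctrl_E0, from the authors' deposited tables. The sum for shRNA-cFos joins opposite changes. Slc1a2 (0.64), Gja1 (0.57) and Slc1a3 (0.19) rose there on the log2 scale, and Gfap fell (-0.57). Of 8 endothelial markers 1 rose with shRNA-cFos and 4 with shRNA-Ctrl, and none fell, by the authors' deposited tables. Their summed level was 2657 in shRNA-cFos_E1 and 2696 in shRNA-cFos_E0, and 4055 in shRNA-Ctrl_E1 and 3183 in shRNA-Ctrl_E0, from the authors' deposited tables. No marker of these lists was at 0. Their part in the changes of Mmp12, Mmp19 and Timp1 with overexpression, and of Mmp2, Adamts5, Mmp14, Mmp15 and Timp1 at E1, was not tested.

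A further question was whether the E1 response of a member differed between the hairpins. It did for 17 of 71 members, with 9 responses higher (12.7%) and 8 lower (11.3%) in the shRNA-cFos arm, computed from the authors' deposited tables. Of all 14386 genes 23.8% differed, 12.9% higher and 11.0% lower, so the members lay near the background. The median difference was -0.15 for members and 0.01 for all genes, computed from the authors' deposited tables.

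On the deposited scale Mmp2 differed most, by -1.60 ± 0.28 on the log2 scale (adjusted p = 8.6e-07, computed from the authors' deposited tables). Its direction was opposite in the arms and called in both. The same held for Adamts5 (-1.27 ± 0.31), Mmp17 (0.75 ± 0.13) and Mmp24 (0.89 ± 0.15), computed from the authors' deposited tables. Timp1 had a lower response with shRNA-cFos (-1.17 ± 0.39, adjusted p = 0.016), although neither arm passed by itself, computed from the authors' deposited tables. With the shrinkage removed that difference was -2.07, from uncertain values in both arms. Mmp14 (-0.62 ± 0.18) and Mmp15 (-0.77 ± 0.20) had a lower response too, computed from the authors' deposited tables. Adamts20 rose in both arms, by more in the shRNA-cFos arm (0.67 ± 0.17), computed from the authors' deposited tables. Timp3 (0.41 ± 0.14) and Timp4 (0.54 ± 0.16), which rose with shRNA-cFos and were not called with shRNA-Ctrl, had a higher response too, computed from the authors' deposited tables. Col6a1 rose in both arms and its response was smaller with shRNA-cFos (-0.53 ± 0.19, adjusted p = 0.026), computed from the authors' deposited tables.

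**Figure D4:**
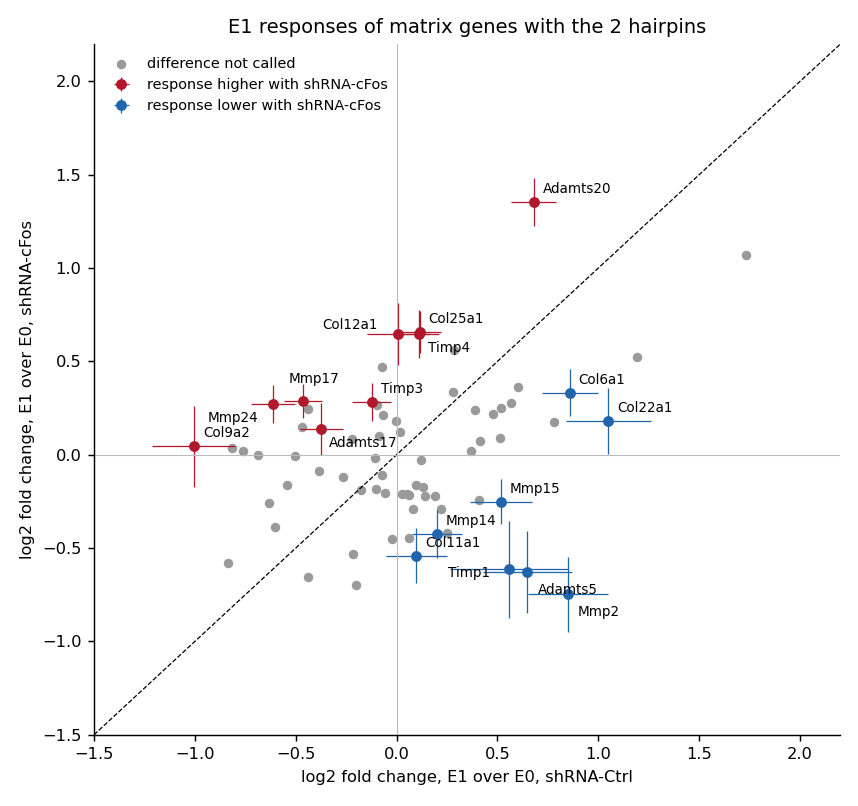
Log2 fold change at E1 over E0 with shRNA-cFos (y axis) against that with shRNA-Ctrl (x axis) for the 71 members tested in both tables, with SE bars on the 17 whose responses differed. The dashed line marks equal responses. Mmp2, Adamts5 and Timp1 lie at lower right and Mmp17 and Mmp24 at upper left, on opposite sides of 0 in the 2 arms.

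The arms share no library, and the lists of called members overlapped in part. Of the 22 members called with shRNA-cFos and the 25 called with shRNA-Ctrl, 10 were shared, which is 45.5% of the first list and 40.0% of the other. In 6 the direction was the same (Adamts20, Col10a1, Col19a1, Col4a6, Col6a1 and Timp2) and in 4 it was opposite. Over all genes the same arms shared 51.0% of the calls with shRNA-cFos and 39.8% of those with shRNA-Ctrl, and 72.3% of the shared calls had the same direction. Between shRNA-Ctrl and overexpression 8 called members were shared, 32.0% and 33.3% of the lists, 6 of them in the same direction. Over all genes these shares were 18.7% and 47.0%, with 74.2% in the same direction. Between shRNA-cFos and overexpression 8 were shared, 36.4% and 33.3% of the lists, 3 in the same direction (Adamts4, Col6a1 and Timp3) and 5 in the opposite one. Over all genes these shares were 20.5% and 40.4%, with 34.8% in the same direction. These counts come from the authors' deposited tables and were not tested.

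Genes that serve or surround the members are given from lists, beside the shares above. Genes for collagen processing rose for 1 of 15 and fell for 2 at E1 with shRNA-cFos, and rose for 5 of 16 and fell for 1 with shRNA-Ctrl, by the authors' deposited tables. P4ha1, a prolyl hydroxylase that stabilises the collagen helix, rose by 0.87 ± 0.10 with shRNA-cFos and by 1.20 ± 0.09 with shRNA-Ctrl in the authors' deposited tables. Its relative P4ha2 fell with shRNA-cFos (-0.45 ± 0.18) and rose with shRNA-Ctrl (1.02 ± 0.17) in the authors' deposited tables, a difference of -1.47 ± 0.25. The lysyl hydroxylase gene Plod1 did the same, at -0.52 ± 0.14 with shRNA-cFos and 0.53 ± 0.13 with shRNA-Ctrl in the authors' deposited tables. With overexpression 6 of 16 rose and 1 fell by the authors' deposited table, with the smallest adjusted p for Bmp1 (0.56 ± 0.08), which cuts the C-end of procollagen, with P4ha3 (0.94 ± 0.19) and Tll1 (0.78 ± 0.16).

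Lectican and perineuronal net genes rose for 4 of 11 and fell for 1 at E1 with shRNA-cFos, and rose for 2 with none lower with shRNA-Ctrl, in the authors' deposited tables. Acan encodes aggrecan, the substrate of the aggrecanases above. It rose with overexpression by 2.40 ± 0.15 (adjusted p = 7.5e-58), stood at 0.36 ± 0.18 with shRNA-cFos and rose with shRNA-Ctrl by 0.94 ± 0.15, in the authors' deposited tables. Bcan (brevican) rose with shRNA-cFos (0.59 ± 0.09) and fell with overexpression (-0.42 ± 0.08) in the authors' deposited tables, and Hapln4 (0.60 ± 0.11) and Tnr (0.59 ± 0.10) also rose with shRNA-cFos. Vcan (versican) fell with shRNA-cFos (-0.33 ± 0.12) and rose with shRNA-Ctrl (0.44 ± 0.10), and Ptprz1 rose with overexpression (0.24 ± 0.07) in the authors' deposited tables.

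Laminin and other basement membrane genes were called for 4 of 15 with shRNA-cFos, 2 with shRNA-Ctrl and 2 with overexpression in the authors' deposited tables. Lamc1, the common laminin gamma chain, rose in each (0.56 ± 0.12, 0.47 ± 0.10 and 0.27 ± 0.09 in the authors' deposited tables). Nid1 rose with overexpression (0.46 ± 0.16), and Agrn rose (0.26 ± 0.07) while Lamb1 fell (-0.25 ± 0.09) with shRNA-cFos, by the authors' deposited tables. Of 7 plasminogen system genes tested, Plau (urokinase) fell with shRNA-cFos (-1.40 ± 0.22) by the authors' deposited table. The inhibitor Serpine2 rose with shRNA-Ctrl (0.44 ± 0.07) in the authors' deposited table. With overexpression Plat (tissue plasminogen activator) rose by 0.87 ± 0.09 and Serpini1 fell by 0.41 by the authors' deposited table.

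Collagen receptors fell for 3 of 7 with shRNA-cFos and rose for 2 of 8 with shRNA-Ctrl in the authors' deposited tables. Itgb1, the integrin beta chain of these receptors, was at -0.32 ± 0.10 with shRNA-cFos and 0.42 ± 0.10 with shRNA-Ctrl in the authors' deposited tables, both called. Ddr2 (-0.61 ± 0.16) and Lair1 (-0.52 ± 0.18) fell with shRNA-cFos and Itga1 rose with shRNA-Ctrl (0.51 ± 0.14) in the authors' deposited tables. With overexpression Ddr1, a collagen-binding kinase, rose by 0.63 ± 0.09 and Itga11 fell by 0.52 by the authors' deposited table. The ADAMTS-like genes, which lack the protease part, had 0 of 5 called with shRNA-cFos by the authors' deposited table. With shRNA-Ctrl Adamtsl1 rose (0.57 ± 0.16) and Adamtsl2 fell (-0.44 ± 0.16) by the authors' deposited table. With overexpression Adamtsl3 (0.79 ± 0.19) and Adamtsl4 (0.64 ± 0.18) rose and Adamtsl1 fell (-0.54 ± 0.17) by the authors' deposited table.

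Of the members not yet given, Col2a1, Col5a1, Col8a1, Col8a2, Col11a2, Col13a1, Col14a1, Col17a1, Col20a1, Col24a1, Col26a1, Col28a1, Adamts2, Adamts6, Adamts7, Adamts10, Adamts12, Adamts16, Adamts19 and Mmp28 were called in none. A total of 71 members were tested in all 3 tables and 10, all secreted MMPs, in none. Those 10 had mean counts of at most 2.94 in the authors' deposited tables. For these 10 a change was not detectable at this depth.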

How the data were processed

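Dentate gyrus RNA was sequenced from 18 mice in 6 groups of 3, and the deposited data used here are the authors' 3 tables of comparisons. The submitters' processing notes name TopHat2, DESeq2 and the build mm9. Tool versions, read counting, annotation and strandedness were not given in the sources used here. Per the file headers, the columns are a mean normalized count (a signal, scaled by size factors), a log2 fold change with its standard error, a Wald score, a p-value and a Benjamini-Hochberg adjusted p-value. The tables hold 0 columns of values per library, so library depths are unknown, no library could be left out, and the precision is that of the authors' standard errors. A plan for fits per library was therefore not used.

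Genes were called at an adjusted p under 0.05. The deposited fold changes are shrunken toward 0, since standard errors reach at most 0.26 (shRNA-cFos), 0.29 (shRNA-Ctrl) and 0.20 (overexpression), as a normal prior of standard deviation 0.53, 0.59 and 0.41 gives. This prior was removed algebraically as an alternative. Values with a standard error within 10% of the largest are uncertain after that step and are said to be so. Group levels were estimated from the mean count and the fold change with the prior removed, and carry no error. Summed marker levels can hold uncertain values of single markers. The tables were normalized separately, so levels are compared within a table only. The difference of the E1 responses was taken between the log2 fold changes, divided by its standard error (both errors squared, summed and rooted), with a normal p (2-sided) adjusted by Benjamini-Hochberg over 14386 genes (scipy 1.17.1). Levels per kb used merged exons of GENCODE M21 (GRCm38), a later build than mm9.

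The table for overexpression holds 27 gene names turned into dates, which were left out. Members, gene lists and alternatives (a stricter threshold, a fold minimum, other count filters, centring) were chosen with earlier results of these data known. Members called in any table were named, with Timp1 to Timp4, Mmp2, Mmp3, Mmp9, Adamts1 and Adamts4 always, and up to 3 called genes with the smallest adjusted p per other list, some of which are not reported here. Mmp promoters and overlapping genes were named after their values were seen.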

Additional observations from a re-analysis of the deposited data

Results flagged for a closer look

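The E1 response differed between the hairpins for 17 members, by the test of the difference itself with an adjusted p under 0.05. With shRNA-cFos minus shRNA-Ctrl, the log2 differences above 0, computed from the authors' deposited tables, were 1.05 for Col9a2, 0.89 for Mmp24, 0.75 for Mmp17, 0.67 for Adamts20, 0.64 for Col12a1, 0.54 for Col25a1, 0.54 for Timp4, 0.51 for Adamts17 and 0.41 for Timp3. Those below 0 were -1.60 for Mmp2, -1.27 for Adamts5, -1.17 for Timp1, -0.87 for Col22a1, -0.77 for Mmp15, -0.64 for Col11a1, -0.62 for Mmp14 and -0.53 for Col6a1.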

How the results depend on the processing

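Values were recomputed under 6 alternatives for the members chosen by the naming rule. Each alternative gave 198 values, except a minimum mean count of 50, which gave 164 and none for genes below it. Of these 1154 values, 1089 kept their side of the threshold and 65 were no longer called. No value called before or under the alternative changed direction. By construction, direction could change only under centring, or for the difference of responses with the prior removed. Within a table, removing the prior also leaves the calls unchanged by construction. Those 65 came from a stricter adjusted p of 0.01 or a fold minimum of 1.5, except Col9a1, Col3a1 and Col5a2 without a minimum mean count and Col5a2 under centring. For shRNA-cFos, members called fell to 11 at an adjusted p of 0.01 and to 9 with a fold minimum of 1.5, against 22, and by construction fewer genes can pass. For the difference of responses an adjusted p of 0.01 left 10 of 17. With overexpression all alternatives left 16 to 24 members, of which 15 to 20 were higher. No paired analysis was possible because the tables hold no value per library, and leaving out a replicate could not be run for the same reason. Low mean counts limit what can be said of Col10a1, Mmp12 and Timp1.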
